A study of Mus musculus with 6 samples.

Results

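The genes described here govern the G1 phase of the cell cycle. They are the D-type cyclins (Ccnd1, Ccnd2, Ccnd3), the cyclin-dependent kinases Cdk4 and Cdk6, the kinase inhibitors Cdkn1b, Cdkn1c, Cdkn2a and Cdkn2b, and the retinoblastoma gene Rb1. All 10 were chosen by symbol from the 27179 genes of one expression table, and Cdkn1a was not among them. The table was made from 6 RNA-seq libraries of B16F10 cells, an established mouse melanoma line that the labels give as wild type. Of these libraries, 3 came from cells treated with 0.01% olive oil (OLO) and 3 from cells treated with 0.01% ozonated olive oil (OZO), for 6 h in each case. Each gene has one average over the OLO and OZO libraries together, so every level below describes both groups at once, with no spread between libraries. How these genes differed between OZO and OLO was not analysed here.

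D-type cyclins bind CDK4 or CDK6 in G1, and the active kinases phosphorylate the RB protein, which then releases E2F transcription factors that switch on genes for DNA synthesis. The INK4 inhibitors, among them the products of Cdkn2a and Cdkn2b, bind CDK4 and CDK6 directly, whereas the Cip/Kip inhibitors, among them the products of Cdkn1b and Cdkn1c, act on a wider set of cyclin-kinase complexes. Cdkn2a also encodes ARF, a stabiliser of p53, from an alternative first exon. In melanoma, loss of CDKN2A and gain of CDK4 or cyclin D activity are recurrent events.

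Levels are given as average log2 CPM, where CPM scales the reads of a gene to the size of its library and 0.5 reads are added to every count. A typical library held 19641946 reads (a geometric mean after scaling, computed from the value of genes without reads), and a gene at 1 CPM thus rested on about 19.6 reads in each library. In all, 6025 of the 27179 genes (22.2%) had no read in any library, and 11878 (43.7%) reached 1 CPM. Defining genes of the melanocyte lineage were abundant, as all 7 of them lay between 109 CPM (Sox10) and 7052 CPM (Dct), with Mitf, the master regulator of the lineage, at 288 CPM, and the pigment genes Tyr at 301, Mlana at 545, Pmel at 3066 and Tyrp1 at 5832 CPM. Of the 14 markers of other cell types, 6 reached 1 CPM, namely 3 of 4 fibroblast, 1 of 2 endothelial and 2 of 4 blood cell genes, the highest being the macrophage gene Cd68 at 5.47 CPM. None of the 4 keratinocyte markers passed 0.0367 CPM. In RNA from whole cultures, fewer cells that express a gene and less RNA per cell cannot be told apart.

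Of the 10 genes, 7 reached 1 CPM, 1 had a handful of reads and 2 had none, where 43.7% of all genes reached 1 CPM and 22.2% had no reads. Ccnd2 stood far above the others, and the INK4 pair Cdkn2a and Cdkn2b formed the lower end. The cyclins, Cdk4, Cdkn1b and Rb1 were all well expressed, whereas Cdk6 was weak and Cdkn1c nearly silent.

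**Figure D1:**
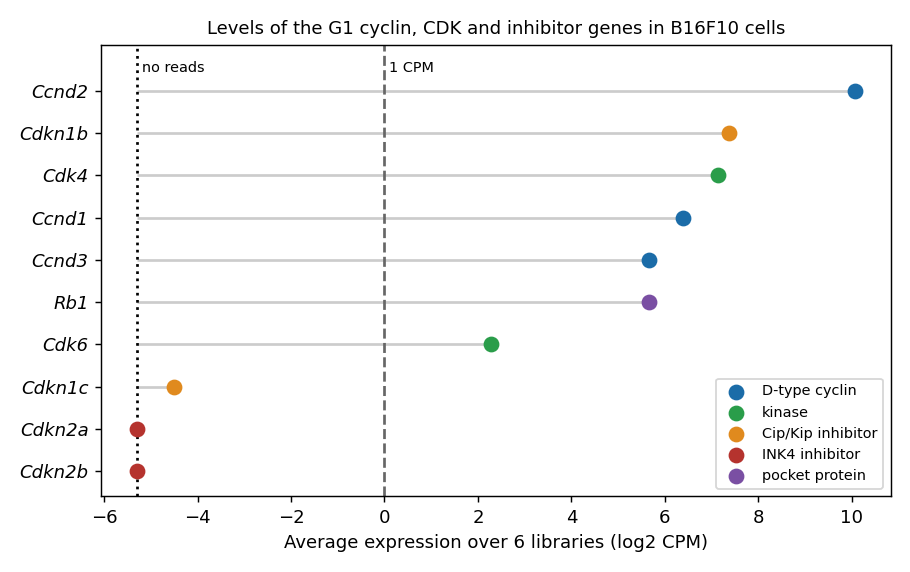
Average expression of the 10 genes over the 6 libraries (x axis, log2 CPM), 1 point per gene and coloured by role, with a dashed line at 1 CPM and a dotted line at the value of genes without reads. Ccnd2 lies at 10.06, 6 further genes lie between 2.28 and 7.37, and Cdkn2a and Cdkn2b lie on the dotted line.

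Among the D-type cyclins, Ccnd2 dominated. It averaged 10.06 log2 CPM (1070.3 CPM), or 21022 reads per library as a geometric mean, and 62 genes of the table were higher. Ccnd1, the cyclin D gene most often discussed in melanoma, averaged 6.38 log2 CPM (83.4 CPM, 1638 reads per library). Ccnd3 averaged 5.67 log2 CPM (50.9 CPM, 999.7 reads per library). Longer transcripts collect more reads, so genes were compared after division by the length of the longest annotated transcript. On this scale of log2 CPM per kb, Ccnd2 was at 7.40, Ccnd1 at 4.48 and Ccnd3 at 3.72. Per length, Ccnd2 was 7.58 times the level of Ccnd1 and 12.8 times that of Ccnd3, and it made up 82.6% of the summed level of the 3 cyclin genes. Ccnd1 contributed 10.9% and Ccnd3 6.45%. These ratios moved with the length used. With the coding length Ccnd2 was 13.1 times Ccnd1 and 21.2 times Ccnd3 and made up 89.0% of the sum, and with the union of all exons it was 6.42 and 19.6 times them and made up 82.9%. Ccnd1 was 1.69 times Ccnd3 with the longest transcript, 1.62 times with the coding length and 3.05 times with the union of exons. The choice of length thus moved this step by more than its counting error, 0.024 on the log2 scale. This error covers the sampling of reads only, and the variation among the 6 libraries is not part of it.

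The 2 kinase genes were very unequal. Cdk4 averaged 7.13 log2 CPM (140.2 CPM, 2753 reads per library), which placed it above 92.1% of the 21154 genes with reads. Cdk6, whose product also phosphorylates RB, averaged 2.28 log2 CPM (4.86 CPM, 95.4 reads per library) and was above 53.3% of those genes. Per length the gap widened, because the longest Cdk6 transcript spans 11525 bases against 2053 for Cdk4. Cdk4 then stood at 6.09 and Cdk6 at -1.25 log2 CPM per kb, a ratio of 162. With the coding length in place of the longest transcript, the levels were 7.27 and 2.31 log2 CPM per kb, a ratio of 31.1. Cdk2, the kinase that acts after CDK4 and CDK6 with E-type and A-type cyclins, was 1.77 times the level of Cdk4 per length, but 837 bases of its span overlap the abundant Pmel on the opposite strand.

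Of the Cip/Kip inhibitors, Cdkn1b was abundant and Cdkn1c was close to absent. Cdkn1b, which encodes p27, averaged 7.37 log2 CPM (166 CPM, 3256 reads per library), second to Ccnd2 among the 10 genes. Per length it stood at 5.19 log2 CPM per kb, below Cdk4, but with the coding length it was 1.82 times the level of Cdk4. Cdkn1c, an imprinted gene that encodes p57, averaged -4.50 log2 CPM. Because this average is built from whole reads, the reads behind it can be listed. It fits 3 distributions over the 6 libraries, which hold 3 reads (1 in each of 3 libraries), 5 reads (4 and 1) or 13 reads (all in 1 library). Which libraries held them cannot be read from the average. Of the 11 other genes of the table within 250 kb of Cdkn1c, 6 reached 1 CPM, among them Nap1l4 at 203 CPM, Cars at 186 CPM and Kcnq1ot1, the antisense RNA of the imprinted domain, at 12.6 CPM. The nearest neighbour, Slc22a18, 12.7 kb away, was another of the 6, at 3.65 CPM. The neighbours under 1 CPM were Tnfrsf23 (0.215 CPM), Phlda2 (0.117 CPM), Tnfrsf26 (0.0692 CPM), 4933417O13Rik (0.0435 CPM) and Kcnq1 (0.0367 CPM). Genes without reads stood at 0.0255 CPM on this scale. These neighbours were looked up after the level of Cdkn1c had been seen.

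Neither INK4 gene of the list had a read in any of the 6 libraries. With 3 counts over the 6 libraries taken as the limit that a count of 0 allows, Cdkn2a and Cdkn2b were each below 0.0255 CPM. As 22.2% of all genes had no reads, 2 such genes among 10 are near the background share. The other INK4 genes were expressed. Cdkn2d, which encodes the INK4 inhibitor p19, averaged 29.1 CPM (571 reads per library) and Cdkn2c, which encodes p18, 13.2 CPM (260 reads per library, from an average log2 CPM of 3.73). Per length, Cdkn2d stood 3.82 times above Cdkn2c, and Cdkn1b was 1.78 times the level of Cdkn2d. With the coding length these ratios were 2.22 and 4.80.

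Cdkn2a and Cdkn2b lie side by side on the minus strand of chromosome 4 of GRCm38 (mm10), Cdkn2a from 89274471 to 89294653 and Cdkn2b from 89306299 to 89311039, with 11.6 kb between them. GENCODE lists 2 transcripts of Cdkn2a, and the upstream first exon belongs to ARF and the downstream one to p16. The bases before the starts of both Cdkn2a transcripts and of Cdkn2b are shown because no read was counted from any of the 3 starts, and those before Cdk4, the best expressed kinase of the list, are shown beside them. Sequences are from RefSeq on GRCm38.p6, read 5′ to 3′ on the strand of the gene, end where an annotated exon begins or at the RefSeq start, and carry CpG dinucleotides in capitals.
Cdkn2a upstream start, chr4:89294654-89294869, minus strand: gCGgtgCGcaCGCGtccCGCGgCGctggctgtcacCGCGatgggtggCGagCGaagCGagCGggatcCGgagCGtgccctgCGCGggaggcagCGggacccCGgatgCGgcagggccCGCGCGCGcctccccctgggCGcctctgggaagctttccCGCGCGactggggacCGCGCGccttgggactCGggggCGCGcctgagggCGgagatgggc
Cdkn2a downstream start, chr4:89282193-89282442, minus strand: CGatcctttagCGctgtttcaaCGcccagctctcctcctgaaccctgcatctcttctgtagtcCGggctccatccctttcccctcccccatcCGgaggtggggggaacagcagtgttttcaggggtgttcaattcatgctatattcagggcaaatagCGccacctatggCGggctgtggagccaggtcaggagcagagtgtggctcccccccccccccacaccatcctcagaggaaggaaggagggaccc
Cdkn2b, chr4:89311040-89311282, minus strand: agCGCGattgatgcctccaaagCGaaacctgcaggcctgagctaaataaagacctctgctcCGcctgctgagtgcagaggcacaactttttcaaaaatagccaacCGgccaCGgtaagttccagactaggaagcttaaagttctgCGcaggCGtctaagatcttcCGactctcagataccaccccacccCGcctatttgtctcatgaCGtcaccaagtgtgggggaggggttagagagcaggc
Cdk4, chr10:127063285-127063533, plus strand: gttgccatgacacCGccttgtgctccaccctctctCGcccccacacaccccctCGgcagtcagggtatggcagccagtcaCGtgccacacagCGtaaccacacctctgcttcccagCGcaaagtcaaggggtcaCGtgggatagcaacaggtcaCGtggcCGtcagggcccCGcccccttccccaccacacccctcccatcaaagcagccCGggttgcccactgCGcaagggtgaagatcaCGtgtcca

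The reference gives 8 windows of 250 bases before a start, for 6 of the 10 genes, and the upstream Cdkn2a window held the most CpG of the 8. It held 40 CpG, more than 98.7% of 32851 mouse promoters of equal length, whose median was 6. The Cdkn1b window came next with 28 CpG, more than 92.4% of promoters, followed by those of Cdk6 with 22 and of one Ccnd3 start with 19. The Cdk4 window held 13, the Cdkn2b window 12, that of the other Ccnd3 start 11 and the downstream Cdkn2a window 7. The windows were counted whole, although GENCODE places exons of the same gene in some of them. For Cdk6 only the first 89 bases, with 7 CpG, precede such an exon, and for the upstream Cdkn2a start 216 bases with 35 CpG do. The sequence TTTCCCGC, one form of the E2F site, was found on either strand in 0.895% of all windows and in 1 of the 8 windows. That window was the upstream one of Cdkn2a. Another form, TTTGGCGC, was in 0.417% of all windows and in none of the 8. CACGTG, the E-box that MYC and related factors bind, occurred 4 times in the Cdk4 window, where 7 of the 32851 windows (0.0213%) held 4 or more, and 6.02% held at least 1. Among the 8 windows, CACGTG occurred in those of Cdk4 and Cdk6 and in no other. The TATA box sequence TATAAA was in 12.4% of all windows and in 1 of the 8, that of Cdk6, where the match is not within those first 89 bases. These are matches of letters and do not show that a factor was bound.

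Next to the silent pair, Mtap was strongly expressed. Mtap, which encodes an enzyme of methionine salvage and is the neighbour of Cdkn2a on chromosome 4, averaged 6.69 log2 CPM (103 CPM, 2029 reads per library) and ends 93.4 kb from Cdkn2a. Of 40 other genes of the table within 1000 kb of the pair, 21 had no reads, 15 had reads but stayed under 1 CPM, and 4 reached 1 CPM. Of all genes of the table, 22.2% had no reads and 43.7% reached 1 CPM. The 4 neighbours at 1 CPM or more were Mtap, Klhl9 (134 CPM), Focad (39.2 CPM) and Hacd4 (2.01 CPM), all on the side of Mtap. All of the 40 genes but Dmrta1 and Zfp352 lie on that side. Many of the genes under 1 CPM are type I interferon genes, which are silent in most unstimulated cells, and 13 of the 17 genes with an interferon symbol had no reads. On the far side of Cdkn2b, Dmrta1 and Zfp352 each averaged 0.0306 CPM, little above the 0.0255 CPM of genes without reads. The nearest gene at 1 CPM or more on that side was Gm12669, 2495 kb away with 4.09 CPM. Whether the DNA of the pair is present in these cells was not tested.

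**Figure D2:**
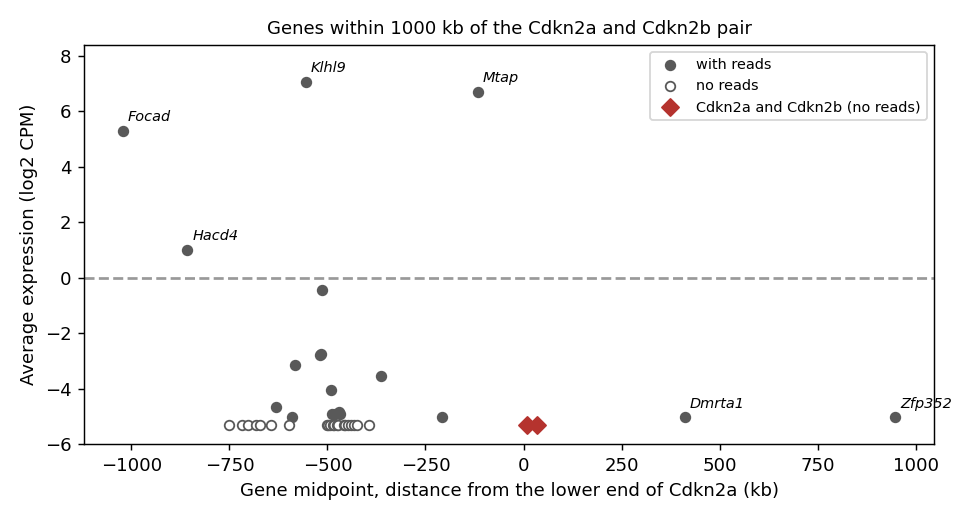
Average expression (y axis, log2 CPM) of the genes within 1000 kb of Cdkn2a and Cdkn2b, by the distance of each gene's midpoint from the lower end of Cdkn2a (x axis, kb). Filled points are genes with reads, open points genes without reads, and red diamonds Cdkn2a and Cdkn2b. The dashed line marks 1 CPM, which only Mtap, Klhl9, Focad and Hacd4 pass, all on the negative side. All neighbours of the pair but Dmrta1 and Zfp352 lie on that side.

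Rb1, the target of the cyclin D kinases, averaged 5.66 log2 CPM (50.6 CPM, 994 reads per library). Its level and that of Ccnd3 differed by 0.0089 on the log2 CPM scale, less than the counting error of 0.026, so their order in log2 CPM cannot be told. Per length, Ccnd3 was 1.21 times Rb1 with the longest transcript and 3.17 times with the coding length, but Rb1 was 1.45 times Ccnd3 with the union of all exons. Rb1 was the lowest of the 3 pocket protein genes per length. Rbl1, which encodes p107, was 3.24 times its level and Rbl2, which encodes p130, 1.78 times, so that Rb1 made up 16.6% of their summed level. Rbl1 made up 53.8% and Rbl2 29.6%.

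**Figure D3:**
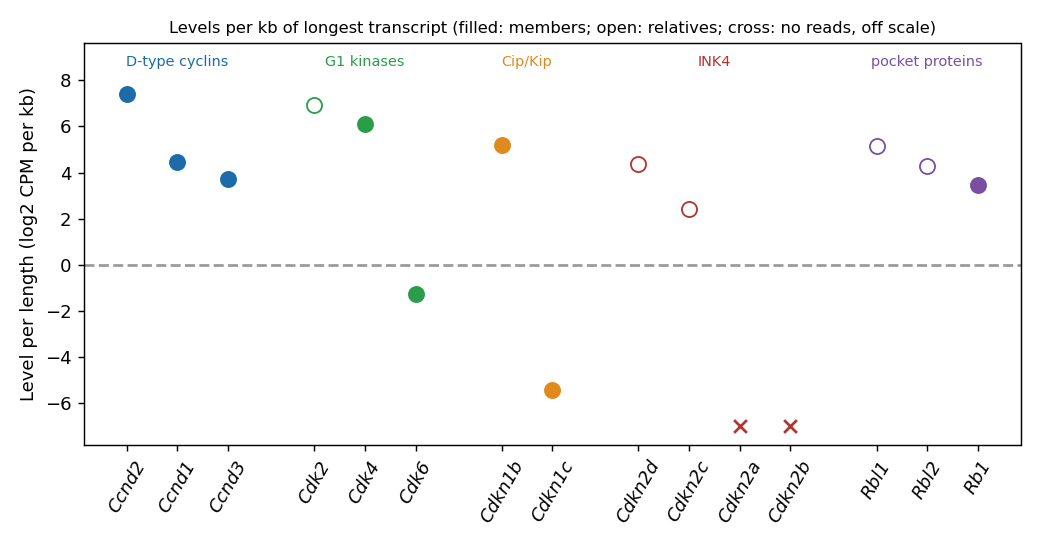
Levels per length (y axis, log2 CPM per kb of the longest transcript) of the members (filled) and their nearest relatives (open), grouped by family, with a dashed line at 1 CPM per kb. Crosses mark Cdkn2a and Cdkn2b, which had no reads and are drawn below the scale. Ccnd2 (7.40) is the highest of those shown, and Cdk6 (-1.25) and Cdkn1c (-5.43) lie under the line.

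Ordered per length, the 7 genes above 1 CPM ran Ccnd2, Cdk4, Cdkn1b, Ccnd1, Ccnd3, Rb1 and Cdk6, but Cdk4 and Cdkn1b changed places with the coding length and Ccnd3 and Rb1 with the union of exons. Steps between neighbours in this order ranged from 0.28 (Ccnd3 to Rb1) to 4.69 (Rb1 to Cdk6) on the log2 scale per kb. Every step was larger than its counting error, at most 0.063, but the step from Rb1 to Cdk6 was 1.88 with the coding length, and none could be compared with the spread between libraries. Against all genes with reads, whose median was 1.45 log2 CPM, Ccnd2 stood above 99.7%, Cdkn1b above 93.6%, Ccnd1 above 85.9%, Ccnd3 above 78.8% and Rb1 above 78.7%. Cdkn1c stood above 12.8%, and above 32.2% when the genes without reads were counted too.

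**Figure D4:**
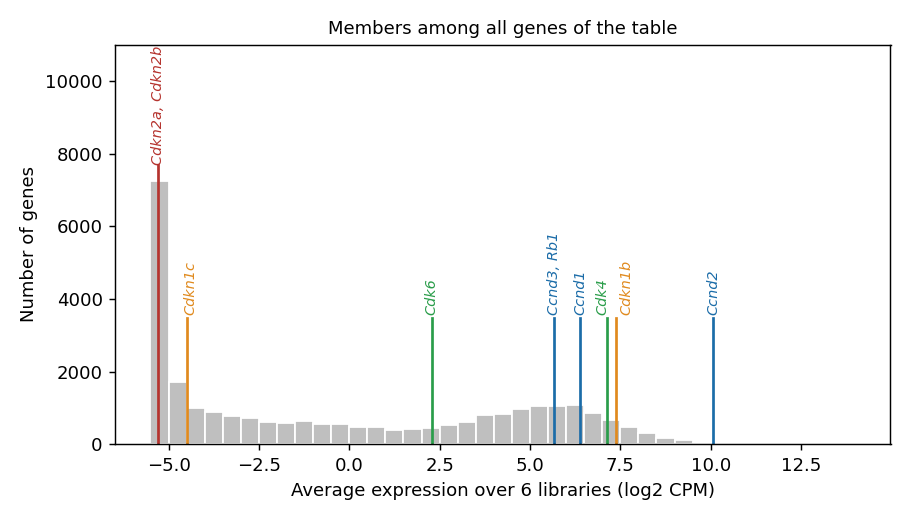
Number of genes (y axis) by average expression over the 6 libraries (x axis, log2 CPM, bins of 0.5), with the 10 genes marked by coloured lines. Most members lie in the right-hand hump of expressed genes, Cdk6 in the trough between the humps, and Cdkn2a and Cdkn2b in the leftmost bar, which holds the 6025 genes without reads and some with very few.

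Some reads may be shared with neighbours. Cdkn1b, Cdkn2a and Cdkn2b overlap no other annotated gene. The last 641 bases of Cdk4 overlap Tspan31 (90.5 CPM) on the opposite strand, 1771 bases of Ccnd1 overlap LTO1 (21.3 CPM), and 361 bases of Ccnd3 overlap Bysl (33.2 CPM). Rb1 shares 24171 bases of its span with Rcbtb2 (24.2 CPM) and holds Lpar6 (4.13 CPM) within an intron, both on the opposite strand. On its own strand Rb1 also overlaps Gm17233 (3649 bases) and Mir687 (89 bases), which strand cannot separate from it. Ccnd2, Cdk6 and Cdkn1c overlap noncoding genes on the opposite strand, among them 9330179D12Rik (0.490 CPM) at Ccnd2 and Gm44732, over 892 bases, at Cdkn1c. Among the relatives named above, Rbl2 overlaps Aktip (39.3 CPM) on the opposite strand. These overlaps are of whole gene spans, introns included. The library kit keeps strand, but whether the counting used it is not given in the sources used here. Whether the overlaps raised or lowered these levels was therefore not tested.

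Almost all genes of a wider G1/S list were expressed, a list chosen with earlier results of these data known. Of 38 further genes listed for this pathway, 37 were found in the table, and 36 of these reached 1 CPM, against 43.7% of all genes. Their median was 5.74 log2 CPM, close to the 5.67 of the 10 members. The highest were Cdk2 (395 CPM), whose overlap with Pmel (3066 CPM) leaves its place uncertain, the kinase Gsk3b (339 CPM), which marks cyclin D1 for export and decay, and Rbbp4 (338 CPM), a histone chaperone that binds RB. At the lower end were Lin37 (8.59 CPM), a subunit of the DREAM repressor, Fbxo31 (8.34 CPM), a ubiquitin ligase subunit that targets cyclin D1, and Ccna1 (0.273 CPM), a cyclin known mainly from the germ line. None of the 37 was without reads. All 8 E2F genes were expressed, from 23.0 CPM for E2f4 to 84.0 CPM for E2f3. The E-type cyclins, which follow cyclin D in late G1, stood at 43.5 CPM (Ccne1) and 35.2 CPM (Ccne2, which overlaps Ints8 at 76.9 CPM on the opposite strand).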

How the data were processed

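RNA-seq libraries of OLO-treated and OZO-treated B16F10 cells (3 each) were summarised in one table. Per the labels and methods, the authors aligned reads to mm10 with HISAT2 (2.1.0), estimated transcripts with StringTie (1.3.4d), counted with featureCounts (2.1.1) and compared the groups with limma-voom (3.58.1). The deposited average expression is the authors' mean log2 CPM over the 6 libraries, from scaled libraries of 19641946 reads (geometric mean). The other deposited columns (fold change, moderated statistic, p-values and log-odds of the authors' comparison) were not used. The table has no values of single libraries, so the planned tests of OZO against OLO were not run and depth per library is unknown.

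Genes without reads share the lowest average, and each gene's reads were computed from its distance to that value. The calculation was tested on simulated counts. For the 5161 genes with the fewest reads, whole reads were recovered in 100% (relative tolerance 1e-06). Counting errors treat reads as independent and cover counting error only. Lengths and positions are from GENCODE M21 (GRCm38), which held 23821 of 24065 Ensembl identifiers, and which may differ from the annotation used for counting. Windows of 250 bases before the start came from RefSeq. The members and lists were chosen with earlier results of these data known. Named were all members, the 3 highest and 3 lowest of the wider list, the melanocyte markers and the highest other marker. Relatives, E2F and E-type cyclin genes, neighbours and motifs were chosen after levels had been seen. Of the wider list, 1 symbol had no match and 1 was matched by a synonym. Python 3.11.15, numpy 2.4.6, pandas 2.3.3, scipy 1.17.1 and matplotlib 3.10.9 were used.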

Additional observations from a re-analysis of the deposited data

How the results depend on the processing

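No paired analysis was possible because each gene has 1 average over the OLO and OZO libraries together. For the same reason another test or normalization, another pseudocount, a filter per library and leaving out each library were not run.

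With a limit of 0.5 CPM, 7 members were expressed, as with 1 CPM, and with 5 CPM 6 were, Cdk6 being lost. Of all genes, 43.7% reached 1 CPM. The wider list kept a count of 36 at each limit. Ccnd2 was first per length with each of the 3 lengths. Cdk4 minus Cdkn1b was -0.86 on the log2 scale per kb with the coding length, and Ccnd3 minus Rb1 was -0.54 with the union of exons, both opposite in sign to the values with the longest transcript. The other 11 pairs of genes compared per length kept their direction with each length. Percentiles moved with the genes compared. That of Cdk6 was 53.3% among genes with reads, 63.6% among all genes, 45.2% among protein-coding genes with reads and 16.8% among genes at 1 CPM or more, and that of Cdkn1c was 12.8%, 32.2% and 9.31% among the first 3 of these, whereas that of Ccnd2 lay between 99.5% and 99.8%. Around Cdkn2a and Cdkn2b, 52.5% of genes within 1000 kb had no reads, 60.9% within 500 kb and 22 of 44 genes within 2000 kb, widths chosen after the values had been seen. The share over all genes was 22.2%.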
